A study of Mus musculus with 6 samples.

Results

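The MAF genes described here are Mafa and Maf, which encode large MAF transcription factors, and Maff, Mafg and Mafk, which encode small ones. They are 5 of the 47643 genes of the raw-count tables, chosen by gene name in the annotated tables. RNA was sequenced from pancreatic islets of 3 wild-type libraries (WT) and 3 libraries with a beta cell specific miR-203 transgene (TG). Per the labels, both genotypes are male mice of 10 weeks, after a fast of 12 h, and the promoter that drives the transgene is not named in the labels. WT 1, WT 2, TG 1 and TG 2 come from 1 set of deposited tables (the first table), and a further set (the second table) holds WT 3 with TG 3. The comparison asks which genes differ between islets with and without the transgene. The labels do not say whether each library came from its own animal, so p-values reflect only how these samples vary, and that variation may be technical.

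MAF proteins bind DNA as dimers through a basic leucine zipper, at MAF recognition elements and related sites. Large MAFs carry an activation domain. MAFA is the large MAF of mature mouse beta cells, where it activates the insulin genes, and c-MAF, the product of Maf, acts in macrophages, T cells and the lens among other tissues. Small MAFs lack an activation domain. They repress as dimers with each other, and they activate or repress with partners such as NRF2 (Nfe2l2) and BACH1 at antioxidant response elements.

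The size difference between the classes is visible in the GENCODE M21 annotation of GRCm38, where the coding sequence with its stop codon has 1080 bases in Mafa, 1143 and 1113 bases in the transcripts of Maf, 471 bases in Maff and Mafk and 489 bases in Mafg. In the authors' annotation Mafa (ENSMUSG00000047591) lies on chromosome 15 at 75746843 to 75747922, minus strand, with a gene length of 1080 bases. That interval is the coding sequence alone, whereas GENCODE M21 places the gene at 75745490 to 75748228 with both UTRs, so the authors' gene model for Mafa leaves its UTRs out. Maf (ENSMUSG00000055435) lies on chromosome 8 at 115682942 to 115707794, minus strand. Maff (ENSMUSG00000042622) lies on chromosome 15 at 79347541 to 79359072, plus strand. Mafg (ENSMUSG00000051510) lies on chromosome 11 at 120625117 to 120633600, minus strand. Mafk (ENSMUSG00000018143) lies on chromosome 5 at 139791513 to 139802653, plus strand. In GENCODE M21, Gm15655 overlaps Maf on the opposite strand over 2156 bases, Tmem184a overlaps Mafk on the opposite strand over 169 bases, and Sirt7 overlaps Mafg on the same strand over 124 bases. The strand setting of the authors' counting is unknown from the labels, so reads in these overlaps cannot be told apart.

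Because the transgene encodes miR-203, its sequence and its seed matches in the MAF transcripts are shown first. A microRNA pairs with its targets mainly through its seed, bases 2 to 8, which is in capitals in the mature sequence from RefSeq (GRCm38.p6, chr12:112130927-112130948, plus strand). In the sites below it, from the 3′ UTRs of GENCODE M21 transcripts and written as DNA, the bases that match the seed are in capitals, including an A opposite base 1 where the transcript has it.
miR-203-3p: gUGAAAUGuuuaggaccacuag
Mafk-201: cttggcaatttCATTTCAAtatttattt
Maf-201: gtaacttaagaCATTTCActttgaactg
Mafg-201: atagacactcagATTTCAAagaaagtcc

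The Mafk site is a match to the whole seed followed by A (an 8mer). It starts at base 1945 of a 3′ UTR of 2134 bases and ends 182 bases before the end of that UTR. The second Mafk transcript, Mafk-202, with a 3′ UTR of 1812 bases, held no match of 7 or 8 bases. The Maf site matches the whole seed (a 7mer-m8) at base 331 of the 1847-base 3′ UTR of Maf-201, and the 4316-base 3′ UTR of Maf-202 had none. The Mafg site matches bases 2 to 7 followed by A (a 7mer-A1) at base 2848 of a 4167-base 3′ UTR. No such match stood in the 3′ UTR of Mafa (1353 bases) or in those of the 3 Maff transcripts (1217 to 1221 bases). A seed match is common: among genes whose longest 3′ UTR was about as long as that of Mafk-201, 24.0% of 3029 held an 8mer or 7mer-m8, and the share was 14.5% of 3123 genes at the length of the Mafa UTR. These matches describe the sequence and were not measured as binding sites.

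**Figure D1:**
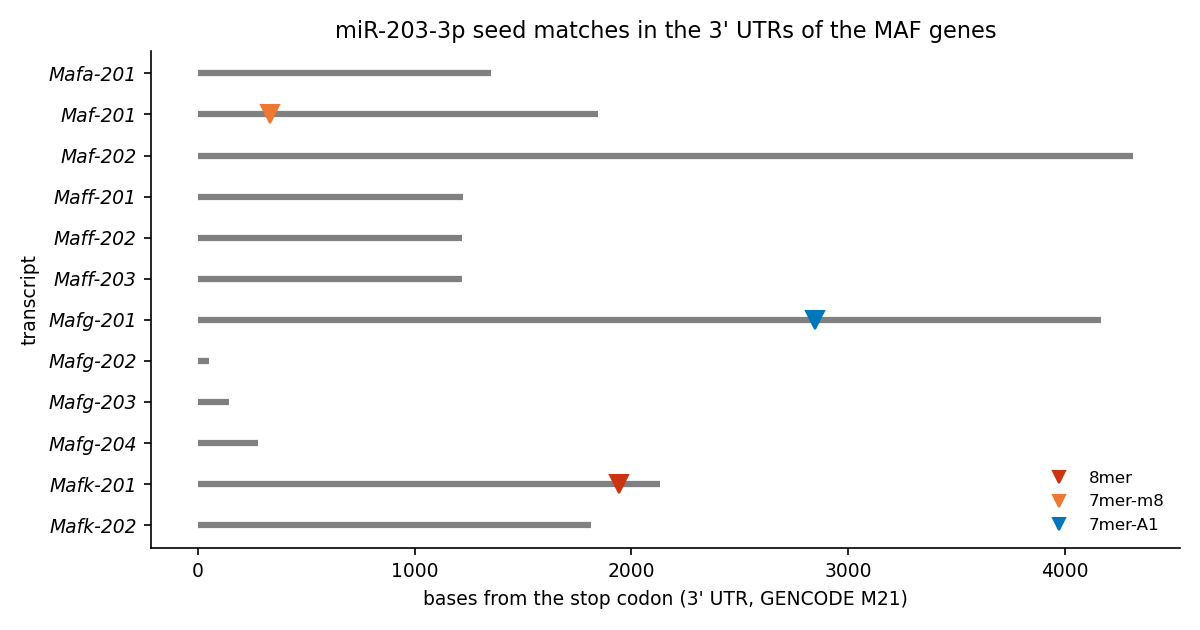
3′ UTRs of the annotated MAF transcripts as grey bars, in bases from the stop codon (horizontal axis), with triangles for miR-203-3p seed matches of 7 or 8 bases. The 3 matches stand in Mafk-201 (base 1945), Maf-201 (base 331) and Mafg-201 (base 2848), and the Mafa and Maff bars carry none.

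Promoter windows of RefSeq (GRCm38.p6, 250 bases before to 50 after each annotated start) were searched on both strands for the elements that MAF dimers are known for. Entries were found for Maff (3 windows), Mafg (1) and Mafk (1) among the MAF genes and for 11 of 17 reported MAFA target genes. The antioxidant response element core, TGACNNNGC, stood in 1 of the 3 Maff windows and in the Mafg and Mafk windows, against 12.4% of all 32851 windows. The element through which MAFA is known to bind insulin promoters stood in the windows of Keap1 and Nfe2l1 among relatives and partners, in that of Ins1 alone among the 11 target genes, and in 1.30% of all windows. The Ins1 match started 21 bases after the annotated start. The full MAF recognition element (its T-MARE form) stood in 2 of all windows and in none of the listed genes' windows. The Mafk match to the antioxidant response element core began at -13 relative to the annotated start and is not printed. The Maff and Mafg stretches upstream of the start are shown as examples, because small MAF dimers act at this core. The match is in capitals, and in Mafg it reads on the opposite strand.
Maff, chr15:79346488-79346537, plus strand: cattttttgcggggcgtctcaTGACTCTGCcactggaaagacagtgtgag
Mafg, chr11:120633741-120633790, minus strand: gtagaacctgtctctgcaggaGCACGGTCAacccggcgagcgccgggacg

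Total counts ran from 20176456 to 27482339 per library, and 16072 genes passed the filter on low counts, among them all 5 MAF genes. Reads at the Mir203 locus numbered 170 (TG 1), 164 (TG 2) and 150 (TG 3) and 0 in WT 2 and WT 3, while the library labelled WT 1 had 39. WT 1 and TG 2 were also the closest pair of libraries, although their counts differed far beyond sampling noise, with a chi-square per degree of freedom of 31.6 from 13065 genes, and whether their labels hold was not tested. Without WT 1 the log2 fold changes were -3.4 for Mafa, -0.01 for Maf, 0.78 for Maff, -0.33 for Mafg and -0.29 for Mafk, with 0 genes called. The second table also went against the label of male mice. Xist, an RNA of the female inactive X chromosome, had 25145 and 27240 counts in WT 3 and TG 3 and 4 to 13 in the first table, where 4 Y-linked genes together had 5463 to 7468 counts, against 16 and 1 in WT 3 and TG 3. The fits have a term for the table unless stated, and values within the tables are given. Ins2, the main marker of the labelled tissue, took between 8.57% and 15.5% of WT counts and between 2.47% and 13.7% of TG counts.

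In TG 1 and TG 3 Mafa was far below every WT library, and moderately lower in TG 2. Its level was 406, 487 and 675 CPM (read counts scaled to a common library total, adjusted by TMM, a normalization of edgeR) in WT 1, WT 2 and WT 3. In TG 1, TG 2 and TG 3 it was 3.72, 249 and 18.1 CPM. The highest TG library lay below the lowest WT library, so the groups did not overlap.

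The Mafa levels were 0.834% (TG 1), 55.9% (TG 2) and 2.69% (TG 3) of the mean of the WT libraries of the same table. The TG mean was 90.4 ± 138 CPM, against a WT mean of 523 ± 138 CPM (SD, n = 3). The counts behind the low values were 107 in TG 1 and 437 in TG 3, which for TG 1 gives a 95% exact Poisson interval of 3.05 to 4.50 CPM (counting error only). The log2 fold change (TG over WT) was -2.83 (SE 1.41) and did not pass the threshold in edgeR's quasi-likelihood test (Benjamini-Hochberg adjusted p = 0.410). Without TG 2 it was -6.10 (SE 0.46) and passed (edgeR adjusted p = 0.00104). Over the alternatives the adjusted p of Mafa ran from 1.45e-29 without the filter on low counts to 0.9997 with the first table alone. Without the filter the log2 fold change was -2.81, with an SE of only 0.24. With the first table alone it was -1.82.

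In bulk RNA fewer cells of a type and less RNA per cell cannot be told apart. The ratio of Mafa to other beta-cell transcription factors in the same library is given as a description that needs no scaling of libraries. For each count of Pdx1, a homeodomain factor of beta cells, there were 2.84 (WT 1), 3.4 (WT 2) and 4.79 (WT 3) Mafa counts and 0.0502 (TG 1), 2.81 (TG 2) and 0.192 (TG 3). For each count of Nkx6-1, another beta-cell homeodomain factor, there were 1.18 (WT 1), 1.5 (WT 2) and 1.56 (WT 3) Mafa counts, and 0.0125 (TG 1), 0.820 (TG 2) and 0.0256 (TG 3) with the transgene. In TG 1 and TG 3 both ratios were under every WT library, and in TG 2 the ratio to Pdx1 was just under that of WT 1. Of 8 listed beta-cell markers 7 were lower, and Nkx6-1, chosen outside the rule for named genes, was the 1 higher. Its log2 fold change was 0.14 (SE 0.21, edgeR adjusted p = 0.806), and it overlapped between genotypes. On the log2 scale it differed from WT of its table by -0.16 (TG 1), -0.14 (TG 2) and 0.71 (TG 3). Slc2a2, the glucose transporter of beta cells, also chosen after its values were seen, differed by -1.62 (SE 0.49, edgeR adjusted p = 0.246). All its TG libraries were below all WT libraries, as for 6.42% of all genes. The part of cell makeup in the Mafa level was not tested.

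Maf was low in every library, and its levels in the genotypes overlapped. It was at 0.972 (WT 1), 2.68 (WT 2) and 1.23 (WT 3) CPM (18, 61 and 28 counts) and at 3.51 (TG 1), 1.43 (TG 2) and 1.33 (TG 3) CPM with the transgene (101, 36 and 32 counts). TG 1 was the highest library and WT 2 the next, and the groups overlapped. The log2 fold change was 0.33 (SE 0.50, edgeR adjusted p = 0.80), and it was -0.01 without WT 1, -0.16 without TG 1 and 0.61 without TG 2. Myeloid markers, listed because macrophages are a known source of c-MAF, summed to 85.1 (WT 1), 196 (WT 2) and 89.96 (WT 3) CPM and to 199 (TG 1), 112 (TG 2) and 209 (TG 3) CPM with the transgene. Of the 10 markers 6 were higher and 4 lower. Csf1r, the receptor that defines macrophages, was at 2.43 (WT 1), 9.24 (WT 2) and 3.81 (WT 3) CPM and at 9.18 (TG 1), 2.58 (TG 2) and 8.88 (TG 3) CPM with the transgene. Adgre1, the next marker of the list, was at 3.08 (WT 1), 8.67 (WT 2) and 1.97 (WT 3) CPM. With the transgene Adgre1 was at 3.72 (TG 1), 2.78 (TG 2) and 1.62 (TG 3) CPM. The log2 fold changes of Csf1r and Adgre1 had opposite signs, at 0.41 (SE 0.64) and -0.68 (SE 0.43). Cd68 and C1qa, chosen after their values were seen, went opposite ways. Cd68, a macrophage lysosomal protein, was lower in every TG library than in every WT library, with a log2 fold change of -1.10 (SE 0.27) and adjusted p of 0.216 in edgeR and 0.0106 in DESeq2. C1qa, a complement subunit, made up much of the sum, with 113 CPM in TG 1 and 148 CPM in TG 3. Its adjusted p was 0.248 in edgeR and 0.0319 in DESeq2, and TG 2 (67.0 CPM) lay just under WT 2 (67.1 CPM). The listed C1qb and C1qc differed less between genotypes, by 0.24 and 0.16 on the log2 scale (edgeR adjusted p = 0.878 and 0.925). C1qb reached 81.3% (TG 1), 83.8% (TG 2) and 249% (TG 3) of the mean CPM of WT in its table. For C1qc these shares were 83.3%, 94.4% and 177%. The part of these cells in the Maf level was not tested. T-cell markers were sparse, with Cd3e at 0 to 0.270 CPM.

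Maff, a small MAF whose gene is rapidly induced by stress and cytokines, was higher in every TG library than in every WT library. It was at 43.6 (WT 1), 45.8 (WT 2) and 35.6 (WT 3) CPM and at 111 (TG 1), 52.2 (TG 2) and 57.3 (TG 3) CPM with the transgene. TG 1 stood highest, and TG 2 was only slightly above WT 2. The levels were 2.47, 1.17 and 1.61 times the mean of the WT libraries of the same table in TG 1, TG 2 and TG 3. The TG mean was 73.3 ± 32.3 CPM, against a WT mean of 41.7 ± 5.39 CPM (SD, n = 3). The log2 fold change of 0.80 (SE 0.27) did not pass in edgeR (adjusted p = 0.272) or in DESeq2 (adjusted p = 0.0900). Without TG 2 it was 1.04 (SE 0.16) and passed in edgeR (adjusted p = 0.00963), and without TG 1 it was 0.42. Over the alternatives the adjusted p of Maff ran from 0.000923 without the filter on low counts to 0.936 without WT 3.

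Mafg, a small MAF that pairs with NRF2 and other partners, was lower in TG 1 and TG 3 but not in TG 2. It was at 128 (WT 1), 135 (WT 2) and 185 (WT 3) CPM and at 95.5 (TG 1), 139 (TG 2) and 127 (TG 3) CPM with the transgene. The groups overlapped, since TG 2 was above WT 1 and WT 2. TG 1 was at 72.6% and TG 3 at 68.7% of WT in its table, and TG 2 at 106%. The log2 fold change was -0.29 (SE 0.18, edgeR adjusted p = 0.514). Without TG 2 it was -0.50 (SE 0.12) and passed in edgeR (adjusted p = 0.0445), the lowest value over the alternatives, of which the highest was 0.9997.

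Mafk, the third small MAF, was lower in every TG library than in every WT library by a small margin. It was at 72.8 (WT 1), 64.4 (WT 2) and 70.7 (WT 3) CPM and at 56.5 (TG 1), 62.5 (TG 2) and 48.1 (TG 3) CPM with the transgene. The gap between the groups lay between 62.5 CPM (TG 2) and 64.4 CPM (WT 2). The TG libraries had 82.4% (TG 1), 91.2% (TG 2) and 68.0% (TG 3) of the WT level of their table. The TG mean was 55.7 ± 7.26 CPM, against a WT mean of 69.3 ± 4.37 CPM (SD, n = 3). The log2 fold change was -0.32 (SE 0.14, edgeR adjusted p = 0.366). It did not pass under any of the 14 alternatives, where its adjusted p ran from 0.102 without TG 2 to 0.9997. The 8mer seed match shown above is in Mafk-201 and not in Mafk-202, and any part of it in the Mafk level was not tested.

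**Figure D2:**
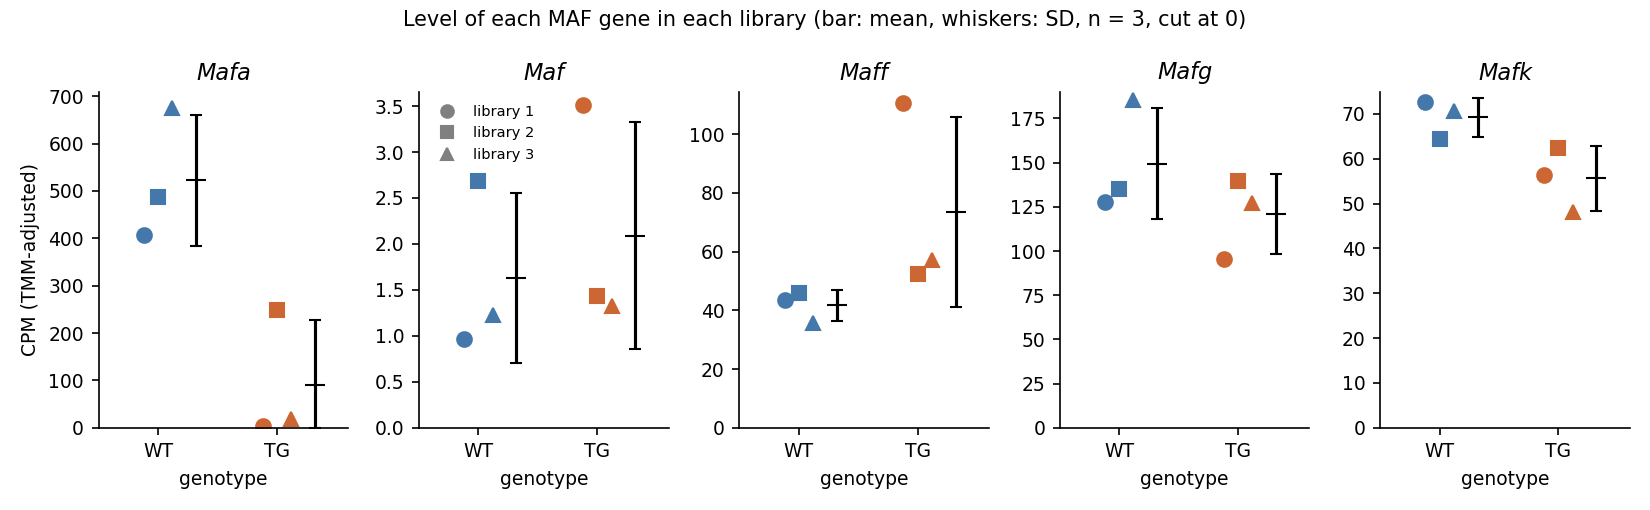
TMM-adjusted CPM (vertical axes, each from 0) of the 5 MAF genes in the WT and TG libraries (horizontal axes); symbols mark library 1 (circle), 2 (square) and 3 (triangle) of a genotype, and the bars give mean and SD with n = 3. The groups do not overlap for Mafa (highest TG library 249, lowest WT library 406), Maff (52.2 against 45.8) and Mafk (62.5 against 64.4), and they overlap for Maf and Mafg.

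Of the 5 MAF genes, edgeR called 0 over all genes, as it called 0 of the 16072 genes tested (0% higher and 0% lower). Maff alone among the 5 had an unadjusted p under 0.05 in edgeR, which 9.32% of all genes reached as higher and 4.81% as lower. DESeq2, with 4.07% of genes called higher and 0.898% lower, and limma-voom, with 0 genes called (an unadjusted p under 0.05 was reached by 8.48% of genes as higher and 5.43% as lower), called none of the 5. Without TG 2, edgeR called 8.82% of genes higher and 4.39% lower, among them Maff as higher and Mafa and Mafg as lower. Within each table, TG was below WT in every library for Mafa and Mafk, as for 13.4% of genes, and above WT for Maff, as for 13%. Counted over both tables together, with all TG libraries below all WT libraries, the background was 6.42% of genes, and with all above it was 6.96%. The count of 3 non-overlapping genes among 5 is a description of a list chosen with earlier results known.

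The sign of the difference was the same in both tables for each of the 5 genes. In the second table alone, TG 3 differed from WT 3 by -5.21 for Mafa, 0.69 for Maff, -0.54 for Mafg, -0.55 for Mafk and 0.11 for Maf on the scale of log2 CPM with a prior count of 2. In the first table alone, edgeR gave log2 fold changes of -1.82, 0.86, -0.16, -0.20 and 0.43 for these genes, with 0 genes called. TG 2 differed from the WT mean of its table by -0.83 for Mafa, 0.22 for Maff, 0.09 for Mafg, -0.13 for Mafk and -0.18 for Maf. As an interaction term of table and genotype, the effect on Mafa differed most between tables, at -3.4 (SE 2.55). The term did not pass in edgeR for any of the 5 (adjusted p = 0.99985 for each), with 0 genes called and 2.28% at an unadjusted p under 0.05. For Mafa it was -4.38 without TG 1 (adjusted p = 0.0305) and of the opposite sign without TG 2 (1.67, adjusted p = 0.383). In both of these fits WT 1 and WT 2 are the only replicates, and the lone libraries of the other arms are assumed to vary like them, so the pass without TG 1 is no test of a difference between tables.

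Levels of different genes were compared per length, in FPKM (fragments scaled by gene length and library depth) as deposited, within each library. In WT 1, WT 2, WT 3 and TG 2, Mafa was the most abundant of the 5, at 357, 429, 689 and 220.5 FPKM. In TG 1 and TG 3 Maff led with 49.8 and 29.5 FPKM, and Mafa had 3.29 and 18.3 FPKM. The order in WT 1, WT 2 and TG 2 was Mafa, Mafg, Maff, Mafk and Maf, and in WT 3 Mafk stood above Maff. In TG 1 it was Maff, Mafg, Mafk, Mafa and Maf, and in TG 3 Maff, Mafg, Mafa, Mafk and Maf.

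Mafa had 6.06, 7.25 and 9.20 times the summed FPKM of the 3 small MAF genes in WT 1, WT 2 and WT 3. The ratio was 0.0412 in TG 1, 3.53 in TG 2 and 0.271 in TG 3. Among the small MAF genes Mafg, Maff and Mafk lay close together in WT, between 15.7 and 36.4 FPKM, with Mafg highest in each WT library and Maff above Mafk in WT 1 and WT 2 alone. The ratio of Maff to Mafk was 1.10 (WT 1), 1.31 (WT 2) and 0.927 (WT 3) and 3.60 (TG 1), 1.54 (TG 2) and 2.19 (TG 3). Every TG library lay above every WT library. This follows from Maff being higher and Mafk lower in every TG library, and is no further result. Maf was lowest in all 6 libraries, at 0.112 to 0.407 FPKM. FPKM of Mafa rests on the coding length alone, and the tables were normalized separately, so levels are read within a library.

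**Figure D3:**
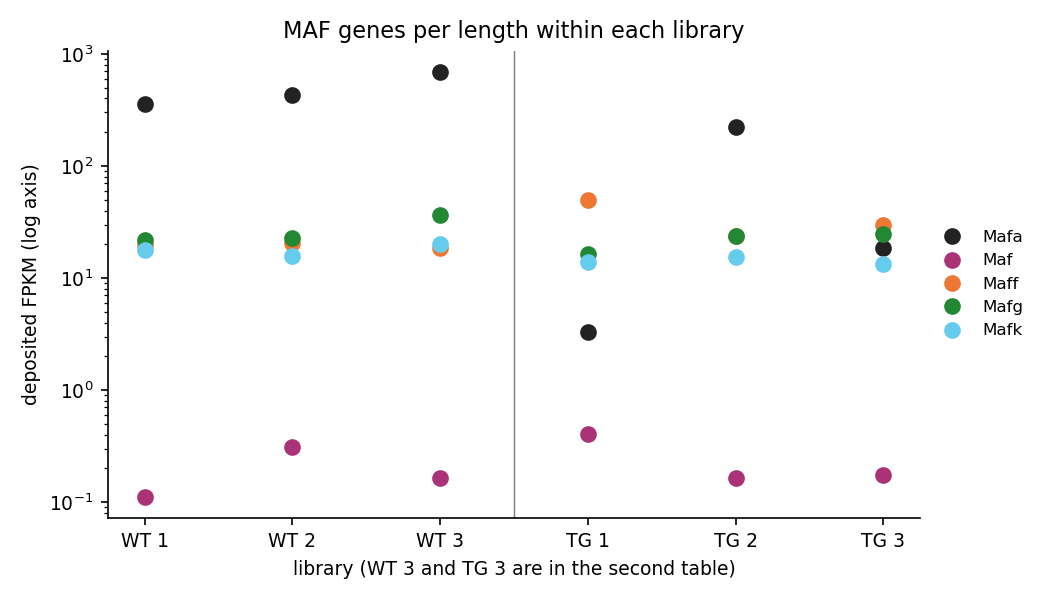
Deposited FPKM on a log axis (vertical) of the 5 MAF genes in each library (horizontal axis, WT left and TG right of the line), with 1 point per gene and library. Mafa is the highest gene at 220.5 to 689 FPKM in the WT libraries and TG 2, and lies among or below the small MAF genes in TG 1 (3.29) and TG 3 (18.3).

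Among the 6 tested relatives and partners of these factors, Bach2 alone had every TG library above every WT library, as had 6.96% of all genes. Nrl, the large MAF of rod photoreceptors, had at most 0.0830 CPM in any library and did not pass the filter.

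Among partners of small MAFs, Bach2, a repressor best known from B cells, was at 0.594 (WT 1), 0.924 (WT 2) and 1.18 (WT 3) CPM and at 3.89 (TG 1), 1.94 (TG 2) and 2.45 (TG 3) CPM with the transgene. The WT values rest on 11, 21 and 27 counts. The log2 fold change of Bach2, 1.62 (SE 0.42), did not pass in edgeR (adjusted p = 0.222). It passed in DESeq2 (adjusted p = 0.0318), which called 4.07% of all genes higher. It also passed in edgeR without TG 2 (adjusted p = 0.0326), which called 8.82% higher. The B-cell marker Cd79a was at 4.43 (WT 1), 4.75 (WT 2) and 6.87 (WT 3) CPM. With the transgene it was at 0.939 (TG 1), 2.70 (TG 2) and 1.91 (TG 3) CPM. All its TG libraries were below all WT libraries, as for 6.42% of all genes. Its log2 fold change was -1.51 (SE 0.41), with adjusted p of 0.234 in edgeR and 0.0249 in DESeq2, which called 0.898% of genes lower. Ms4a1, another listed B-cell marker, chosen after its values were seen, overlapped between genotypes (-0.51, SE 0.76, edgeR adjusted p = 0.795).

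NRF2 (Nfe2l2), the activator of antioxidant genes, had a log2 fold change of -0.03 (SE 0.20), its inhibitor Keap1 one of -0.04 (SE 0.12), and the signs of both turned with total counts as the scaling (0.06 and 0.04). The repressor Bach1 had -0.10 (SE 0.12), the activator Nfe2l1 -0.23 (SE 0.19), and Nfe2l3, another activator of that family, 0.53 (SE 0.57). The erythroid partner Nfe2 did not pass the filter, at 0 to 0.308 CPM. Of the 6 relatives and partners tested, 2 were higher and 4 lower, edgeR called 0, and the median log2 fold change was -0.04, against -0.01 over all genes tested.

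**Figure D4:**
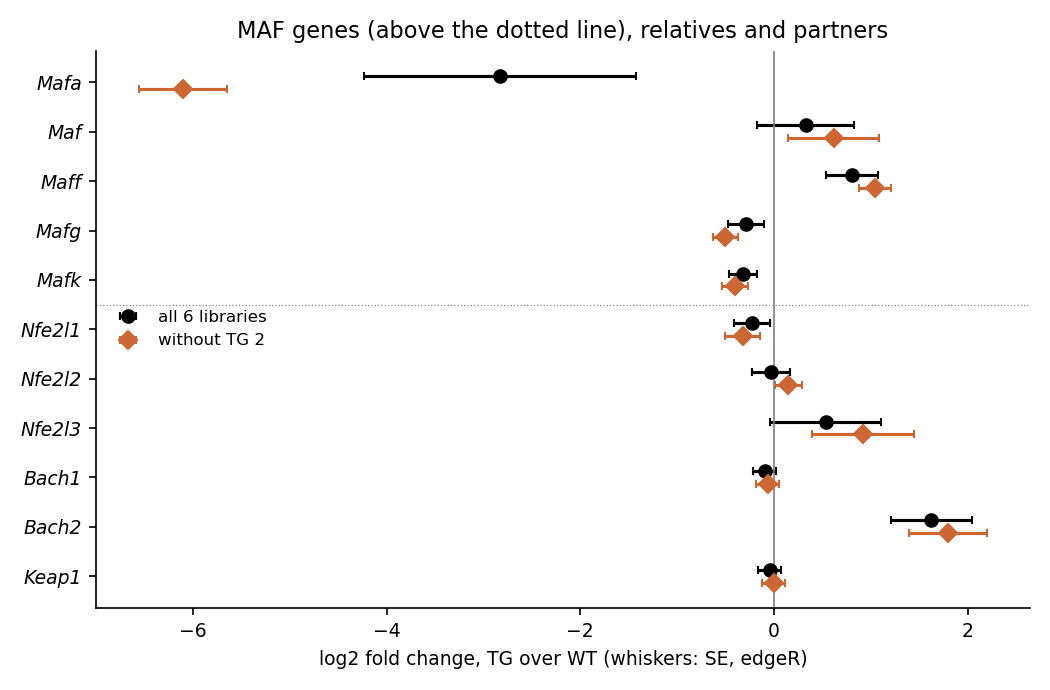
Log2 fold change of TG over WT with its SE (horizontal axis) for the 5 MAF genes and the 6 tested relatives and partners (vertical axis), from edgeR with all 6 libraries (black circles) and without TG 2 (orange diamonds). Mafa goes from -2.83 to -6.10 and Maff from 0.80 to 1.04 when TG 2 is left out, and Bach2 lies at 1.62 and 1.8.

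Genes reported as targets of MAFA were mostly lower in TG. Of 17 genes, 15 were lower and 2 higher, with a median log2 fold change of -0.87 against -0.01 over all genes tested, and 11 had every TG library below the WT libraries of its table (13.4% of all genes). Over all genes edgeR called 0 of them, while an unadjusted p under 0.05 was reached by 7 lower and 1 higher gene (4.81% and 9.32% of all genes). Calls of DESeq2 were 5 lower and 1 higher (0.898% and 4.07% of all genes), and limma-voom called 0. Without TG 2, edgeR called 13 lower and 1 higher (4.39% and 8.82%). The median gene of the list differed from the WT level of its table by -1.77 in TG 1, -0.25 in TG 2 and -1.02 in TG 3. The list was chosen with earlier results of these data known, so its direction is no independent evidence. Ins1, Ins2, Pdx1, Slc2a2, G6pc2 and Slc30a8 are also in the list of beta-cell markers.

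Ins2, the main insulin gene of mice, had log2 differences from the WT libraries of its table of -2.80 in TG 1, -0.12 in TG 2 and -1.54 in TG 3, and Ins1 of -1.77, -0.54 and -0.98. These were smaller than the differences of Mafa in TG 1 and TG 3 on the same log2 scale. Pcx, pyruvate carboxylase, which refills the citric acid cycle, was at 148 (WT 1), 131 (WT 2) and 217 (WT 3) CPM and at 33.6 (TG 1), 95.7 (TG 2) and 62.3 (TG 3) CPM with the transgene. Its log2 fold change of -1.34 (SE 0.38) did not pass in edgeR (adjusted p = 0.238), and it passed in DESeq2 (adjusted p = 0.0161) and in edgeR without TG 2 (-1.95, adjusted p = 0.00105). Glp1r, which encodes a receptor for an incretin hormone, had a log2 fold change of -0.87 (SE 0.20) and Pdx1 one of -0.73 (SE 0.14), and edgeR gave both an adjusted p of 0.199. DESeq2 called both (adjusted p = 0.00947 and 0.000894).

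Chrnb4, a nicotinic receptor subunit reported to depend on MAFA, went the other way. It was at 0.648 (WT 1), 0.308 (WT 2) and 1.23 (WT 3) CPM and at 3.03 (TG 1), 1.15 (TG 2) and 6.97 (TG 3) CPM with the transgene. Each TG library was above the WT libraries of its table, and TG 2 was below WT 3. The log2 fold change was 2.29 (SE 0.48), with adjusted p of 0.199 in edgeR and 0.00242 in DESeq2. Neurod1, a basic helix-loop-helix factor of islet cells, was the other gene with a higher fitted value, at 0.05 (SE 0.18). Neurod1 and Chrnb2 were chosen after their values were seen, as members near 0. Chrnb2, another nicotinic receptor subunit, had -0.10 (SE 0.14).

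**Figure D5:**
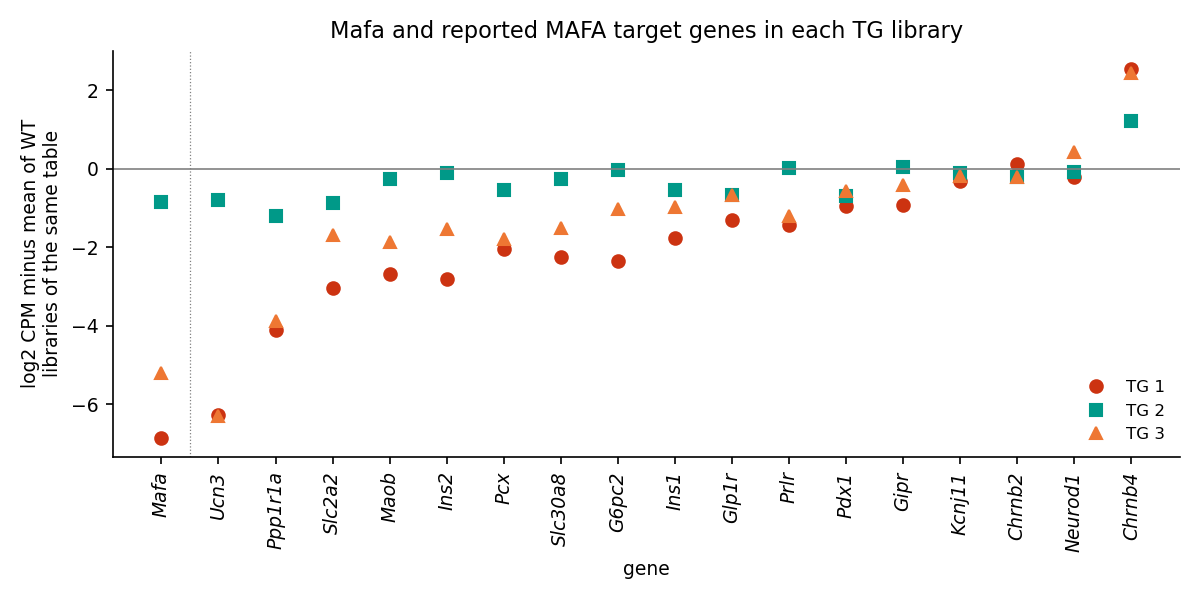
Log2 CPM of Mafa (left of the dotted line) and of 17 reported MAFA target genes in TG 1 (circle), TG 2 (square) and TG 3 (triangle), minus the mean of the WT libraries of the same table (vertical axis, 0 is the WT level). TG 1 and TG 3 lie far below TG 2 for Mafa (-6.87 and -5.21 against -0.83) and for the genes at the left, and Chrnb4 is above 0 in each TG library.

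Factors reported to act on the Mafa enhancer were mostly higher in the fit by small amounts, mainly through TG 3, while Pdx1 was lower. The median factor differed from the WT level of its table by 0.04 in TG 1, 0.03 in TG 2 and 0.43 in TG 3. Of the 11 tested, 9 were higher and 2 lower, with a median log2 fold change of 0.14 against -0.01 over all genes, and edgeR called 0. Over all 16072 genes tested, 7723 were higher and 8349 lower. Pdx1 was at 143 (WT 1), 143 (WT 2) and 141 (WT 3) CPM and at 74.1 (TG 1), 88.9 (TG 2) and 94.4 (TG 3) CPM with the transgene. The TG libraries were close to each other for Pdx1, while they spanned 3.72 to 249 CPM for Mafa. DESeq2 called Pdx1 (adjusted p = 0.000894), as did edgeR without TG 2 (adjusted p = 0.0152). These fits called 0.898% and 4.39% of all genes lower. The thyroid hormone receptor gene Thrb had 0.37 (SE 0.17), the LIM-homeodomain factor gene Isl1 0.31 (SE 0.18) and the forkhead factor gene Foxa2 0.19 (SE 0.12), and every TG library was above the WT libraries of its table for these 3 genes. Their adjusted p in edgeR were 0.380, 0.473 and 0.528. Onecut1 did not pass the filter.

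Targets of NRF2 with small MAFs were mostly lower. Of 18 genes, 15 were lower and 3 higher, the median log2 fold change was -0.33, and 8 had every TG library below the WT libraries of its table (13.4% of all genes). Over all genes edgeR called 0, and 5 lower genes had an unadjusted p under 0.05 (4.81%). DESeq2 called 3 lower (0.898%) and edgeR without TG 2 called 2 lower (4.39%). Ftl1, the ferritin light chain, was at 1333 (WT 1), 1939 (WT 2) and 1820 (WT 3) CPM and at 701 (TG 1), 1084 (TG 2) and 715 (TG 3) CPM with the transgene. The groups did not overlap, and the log2 fold change of -1.03 (SE 0.26) had adjusted p of 0.222 in edgeR and 0.00527 in DESeq2. Gstm1, a glutathione transferase, Hmox1, heme oxygenase 1, and Tkt, a transketolase of the pentose phosphate pathway, differed by -1.04 (SE 0.29), -0.89 (SE 0.25) and -0.46 (SE 0.17) as log2 fold change. Their adjusted p in edgeR were 0.234, 0.234 and 0.304, and DESeq2 called Gstm1 (0.0165) and Hmox1 (0.0285). Gclc and Gclm, the subunits of glutamate-cysteine ligase, differed by 0.31 (SE 0.20) and -0.01 (SE 0.14) as log2 fold change. They were named after their values were seen.

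Immediate-early and stress-induced genes were listed because Maff is one of them. Of 12 genes 11 were higher, with a median log2 fold change of 0.40, while 7723 of all 16072 genes tested were higher. In 0 of the 12 was every TG library above the WT libraries of its table (13% of all genes). In 0 of them was every TG library below (13.4%). The main edgeR fit called 0, with 0 at an unadjusted p under 0.05 (9.32% of all genes as higher and 4.81% as lower). DESeq2 and limma-voom also called 0, and edgeR without TG 2 called 2 higher (8.82% of all genes). The median gene of this list differed from the WT level of its table by 0.64 in TG 1, -0.18 in TG 2 and 0.50 in TG 3, while Maff differed by 1.30, 0.22 and 0.69. Egr1, a zinc finger factor of the early response, was at 60.2 (WT 1), 20.9 (WT 2) and 55.7 (WT 3) CPM and at 99.1 (TG 1), 39.5 (TG 2) and 245 (TG 3) CPM with the transgene, so the groups overlapped. Ier3, Klf6 and Junb, early-response genes too, differed by 0.54 (SE 0.31), 0.48 (SE 0.29) and 0.42 (SE 0.26) as log2 fold change. Their adjusted p in edgeR ran from 0.472 to 0.505.

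Genes whose level followed that of a MAF gene across the 6 libraries were sought by Pearson's r of log2 CPM among genes with a mean of at least 5 CPM. With so few libraries high values are common: 96 genes had r above 0.95 with Mafa. The 5 closest to Mafa were Trpm5 (r = 0.9984), Psmb5 (0.9969), Cbs (0.9965), Mccc1 (0.9957) and 2700094K13Rik (0.9955). Trpm5, a calcium-activated cation channel of beta cells, was at 84.8 (WT 1), 81.8 (WT 2) and 101 (WT 3) CPM and at 1.98 (TG 1), 58.9 (TG 2) and 6.97 (TG 3) CPM with the transgene. Trpm5 thus had the order of TG libraries that Mafa had, over a narrower range. Psmb5 encodes a proteasome subunit, Cbs cystathionine beta-synthase and Mccc1 a carboxylase of leucine breakdown. Closest to Maff were Asph (0.9990), an aspartate hydroxylase, Ptgs2 (0.9964), the inducible cyclooxygenase, and Errfi1 (0.9932), a feedback inhibitor of EGF receptor signalling. Ptgs2 was at 2.21 (WT 1), 2.46 (WT 2) and 0.963 (WT 3) CPM and at 33.8 (TG 1), 3.06 (TG 2) and 3.99 (TG 3) CPM with the transgene, with TG 1 highest as for Maff.

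Closest to Maf were Myl12a (0.9900), a myosin light chain, Tgif1 (0.9847), a homeodomain repressor, and Zkscan2 (0.9673). Closest to Mafg were Zfand2b (0.9871), Gtf3c2 (0.9865), a subunit of a factor for RNA polymerase III, and Tat (0.9860), tyrosine aminotransferase. Closest to Mafk were Ccdc167 (0.9939), Taf11 (0.9900), a subunit of the general factor TFIID, and Rab5c (0.9861), a GTPase of early endosomes. These values describe 6 libraries that share depth, scaling and cell makeup.

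Summed marker levels of islet cell types differed between the libraries too. Beta-cell markers summed to 116108 to 237747 CPM in WT and to 54697 to 223984 CPM in TG, with TG 2 the highest of the TG libraries. Of the 8 beta-cell markers 7 were lower. Markers of delta and PP cells summed to 8368 to 9578 CPM in WT and to 13236 to 36371 CPM in TG, and 6 of 6 were higher. Alpha-cell markers summed to 18310 to 26895 CPM in WT and to 22155 to 47279 CPM in TG, with 7 of 7 tested higher. Duct markers summed to 687 to 1044 CPM in WT and to 1487 to 1949.7 CPM in TG, with 7 of 7 tested higher. Sums of stellate-cell and fibroblast markers were 24.5 to 74.8 CPM in WT and 32.8 to 177 CPM in TG. Those of endothelial markers were 247 to 391 and 270.3 to 519 CPM, and those of Schwann-cell markers 11.8 to 17.9 and 16.7 to 22.6 CPM. Acinar markers differed mainly by table. They summed to 2584 (WT 1), 5838 (WT 2), 3006 (TG 1) and 3943 (TG 2) CPM in the first table. In the second table the acinar sums were 103 (WT 3) and 241 (TG 3) CPM. With all libraries edgeR called 0 of these markers. DESeq2 called 3 beta-cell, 1 lymphoid and 1 myeloid marker lower (0.898% of all genes) and 3 duct, 2 alpha-cell, 2 stellate, 2 myeloid, 1 delta or PP, 1 endothelial and 1 Schwann marker higher (4.07%). Without TG 2, edgeR called 6 beta-cell markers and 1 lymphoid marker lower (4.39%) and 5 stellate, 4 duct, 3 delta or PP, 3 myeloid, 2 Schwann, 1 alpha-cell and 1 endothelial marker higher (8.82%). The part of this makeup in the levels of the MAF genes was not tested.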

How the data were processed

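Islet RNA of 3 WT and 3 TG libraries was analysed from the tables the authors deposited. The submitters' processing notes list CASAVA 1.8, HISAT2 and GRCm38 (mm10). How reads were counted, whether by strand and with which annotation release, is not given in the sources used here. The authors deposited raw read counts per gene, a normalized signal per gene and FPKM per gene, in separate tables for WT 1, WT 2, TG 1 and TG 2 and for WT 3 and TG 3. Raw counts were joined on gene identifier and gave all tests. FPKM values as deposited by the authors were used only to order genes within a library, and the deposited signal values were checked but gave no result.

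Genes passing filterByExpr (16072) were fitted in edgeR 4.0.16 (R 4.3.3) with TMM scaling, a term for the table and a term for genotype, by the quasi-likelihood F-test. Benjamini-Hochberg adjustment covered all genes tested, with a threshold of 0.05, and SE is the fold change over the root of F. Alternatives were no filter, RLE scaling, total counts alone, DESeq2 1.42.0, limma-voom (limma 3.58.1), bias-adjusted edgeR, no table term, the first table only and leaving out each library. The fits were tested on simulated data. Total counts of 20176456 to 27482339 limit the precision, mainly for Maf.

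Named genes are the 5 members, Ins1, Ins2, the relatives and partners, and the 4 genes of lowest p in each gene list. The 5 (Mafa) or 3 (others) genes closest in pattern are also named. Where single markers of a cell type list are named, these are its 2 first markers unless stated. The members and lists were chosen with earlier results of these data known. Some listed genes are not reported here and were left out of the list counts.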

Additional observations from a re-analysis of the deposited data

How the results depend on the processing

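Of all genes, 0 were called by edgeR as described, 1672 without the filter on low counts, 752 by DESeq2, and 0 to 2188 when 1 library was left out, the highest without TG 2. Without the filter Mafa (-2.81, adjusted p = 1.45e-29) and Maff (0.78, adjusted p = 0.000923) passed, as did the difference of the Mafa effect between tables (-3.43, adjusted p = 8.52e-09). What changed for Mafa was the SE, not the estimate. The SE was 0.24 against 1.41 with the filter, and 0.49 against 2.55 for the difference between tables. The TG libraries spanned 3.72 to 249 CPM for Mafa, a spread that these small SE do not reflect. Why the SE fell was not tested. Leaving out 1 library gave -6.10 to -1.82 for Mafa, -0.16 to 0.79 for Maf (-0.01 without WT 1), 0.42 to 1.04 for Maff, -0.50 to -0.16 for Mafg and -0.40 to -0.20 for Mafk. The difference between tables ran from -4.38 to 1.67 for Mafa, -1.25 to 0.49 for Maf (0.19 without WT 1) and -0.63 to 0.47 for Maff. Scaling by total counts alone turned the sign of Nfe2l2 (0.063) and Keap1 (0.044). Leaving out 1 library gave -0.18 to 0.15 for Nfe2l2, -0.021 to 0.39 for Myl12a and -0.051 to 0.25 for Zkscan2. Of 560 values for 40 other named genes, 508 kept direction and side of the threshold and 46 newly passed, 19 of them without TG 2. By Spearman's rho 7 of the 17 genes of like pattern were the same. Mafa was the highest MAF gene in 4 libraries also with raw counts per length. Maf, with 18 to 101 counts, is limited by depth. No paired analysis was possible because the labels give the genotypes no shared replicate numbers, and numbers here follow accession order.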
